A study of Homo sapiens with 12 samples.

Results

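The genes described here are 10 regulators of cell survival and death: BCL2, BCL2L1, MCL1, BAK1, BID, BBC3, PMAIP1, BCL2L11, XIAP and CFLAR. They were chosen by name and found by Ensembl identifier among the 19251 genes listed for each library. All 10 passed the filter on low values, as did 17616 genes in all. The libraries are total RNA from 2 human ovarian cancer cell lines with genotype WT, CAOV3 (labelled epithelial high grade serous) and TOV21G (labelled epithelial clear). Each line had 3 control libraries (treatment none) and 3 libraries from cells incubated for 16 h with 10% ovarian cancer ascites, the fluid that gathers in the abdomen of patients with this disease. All cells grew in DMEM with fetal bovine serum and antibiotics, and the labels describe no vehicle for the controls and do not say whether the ascites came from 1 donor or several. Nothing in the labels says that the libraries of a group came from separate cultures, so p-values measure only the spread between these libraries, which may be technical.

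Proteins of the BCL2 family decide whether the outer membrane of the mitochondrion stays intact. Survival members (BCL2, BCL-XL from BCL2L1, and MCL1) hold back the pore formers BAX and BAK, and small BH3-only proteins (BID, PUMA from BBC3, NOXA from PMAIP1, BIM from BCL2L11) bind the survival members or activate the pore formers. Once the membrane opens, cytochrome c starts the caspase cascade, which XIAP inhibits directly, while c-FLIP from CFLAR blocks caspase activation at death receptors; in ovarian cancer cells BCL-XL and MCL1 are widely studied as survival factors.

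Library sizes, recovered from the deposited values as whole reads, ran from 26697609 to 34491304, and 18153 to 18426 genes had a read. The 5 epithelial markers (EPCAM, KRT8, KRT18, KRT19, CDH1) were all present, with a summed normalised count of 131717 to 132806 in CAOV3 controls and 11027 to 12423 in TOV21G controls. Of 8 leukocyte markers, 2 were in the files, and their sum was at most 134 in any library; of 4 erythrocyte markers none was in the files. Within the epithelial list CDH1 was low in TOV21G controls (mean 13.3, against 425 in CAOV3). Of 6 fibroblast and endothelial markers 4 were in the files, with LUM (4196) and PDGFRA (1005) high in CAOV3 controls and COL1A1 (1945) in TOV21G controls. Of 4 mesothelial markers 3 were in the files, with sums of at most 123. The summed level of 3 nuclear RNAs (MALAT1, NEAT1, KCNQ1OT1) ranged from 17229 to 76242 over the TOV21G libraries and from 24195 to 27764 over the CAOV3 libraries.

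Promoter windows from RefSeq (GRCh38.p14, 250 bases before to 50 after a start) were matched for 9 of the 10 genes, 19 windows in all. No window was matched for MCL1, so its promoter was not searched. The windows of 3 genes are shown because these genes stand for the range of behaviour between the untreated lines: BCL2 was far higher in TOV21G, PMAIP1 was higher in CAOV3, and BCL2L11 was not called. Capitals mark the GC box GGGCGG and the CRE core TGACG, searched on both strands. The windows are chr18:63319720-63320019 (minus strand), chr18:59899746-59900045 (plus strand) and chr2:111120664-111120963 (plus strand).
BCL2: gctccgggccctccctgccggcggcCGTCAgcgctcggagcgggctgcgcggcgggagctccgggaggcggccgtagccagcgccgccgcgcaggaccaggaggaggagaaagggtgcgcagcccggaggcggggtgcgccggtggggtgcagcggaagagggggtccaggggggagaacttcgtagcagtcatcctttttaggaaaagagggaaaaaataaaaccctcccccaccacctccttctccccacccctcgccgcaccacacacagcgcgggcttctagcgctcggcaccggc
PMAIP1: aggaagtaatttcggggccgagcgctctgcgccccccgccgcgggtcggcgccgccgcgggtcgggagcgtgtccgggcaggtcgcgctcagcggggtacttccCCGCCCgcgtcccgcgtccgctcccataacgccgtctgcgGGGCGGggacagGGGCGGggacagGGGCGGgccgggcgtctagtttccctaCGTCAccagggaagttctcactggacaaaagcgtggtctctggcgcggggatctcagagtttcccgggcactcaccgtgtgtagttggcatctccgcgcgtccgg
BCL2L11: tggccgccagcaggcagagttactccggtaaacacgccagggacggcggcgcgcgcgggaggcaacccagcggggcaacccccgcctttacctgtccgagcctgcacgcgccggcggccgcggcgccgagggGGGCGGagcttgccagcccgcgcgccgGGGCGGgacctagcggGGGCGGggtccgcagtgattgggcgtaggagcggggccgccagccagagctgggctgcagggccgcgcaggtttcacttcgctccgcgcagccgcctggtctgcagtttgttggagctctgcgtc

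The BCL2 window held no GGGCGG and 1 TGACG, the PMAIP1 window held 4 and 1, and the BCL2L11 window held 3 and 0. Over the 19 windows, GGGCGG was in 12 and TGACG in 4, against 45% and 24.6% of 35116 RefSeq promoter windows of the same length. Some of the 19 belong to the same gene and overlap, so they are not independent. By gene, GGGCGG was in a window of 7 of the 9 and TGACG in a window of 4. The STAT core TTCNNNGAA was in 0 of the 19, none of which belongs to MCL1, against 7.66% of all windows. A match describes letters only.

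The untreated lines differed at most of these genes, in both directions. Here and below, a level is a normalised count (reads divided by 1 size factor per library), a difference is in log2(value + 1) from limma, and a gene is called at a Benjamini-Hochberg adjusted p under 0.05 over all tested genes. TOV21G controls against CAOV3 controls gave 8 of 10 genes called. The background was as high, with 82.2% of all tested genes called, so this count says nothing particular about the survival and death genes. Of the 8, 5 were higher in TOV21G (BCL2, MCL1, BAK1, BID and BBC3; 40.8% of all tested genes were called higher) and 3 were lower (BCL2L1, PMAIP1 and XIAP; 41.4% were called lower). Called with a difference of at least 1 in size were 2 of the 10, BCL2 and PMAIP1, against 42.3% of all tested genes called with such a difference. The median size of the difference was 0.72 over the 10 genes and 0.81 over all tested genes.

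**Figure D1:**
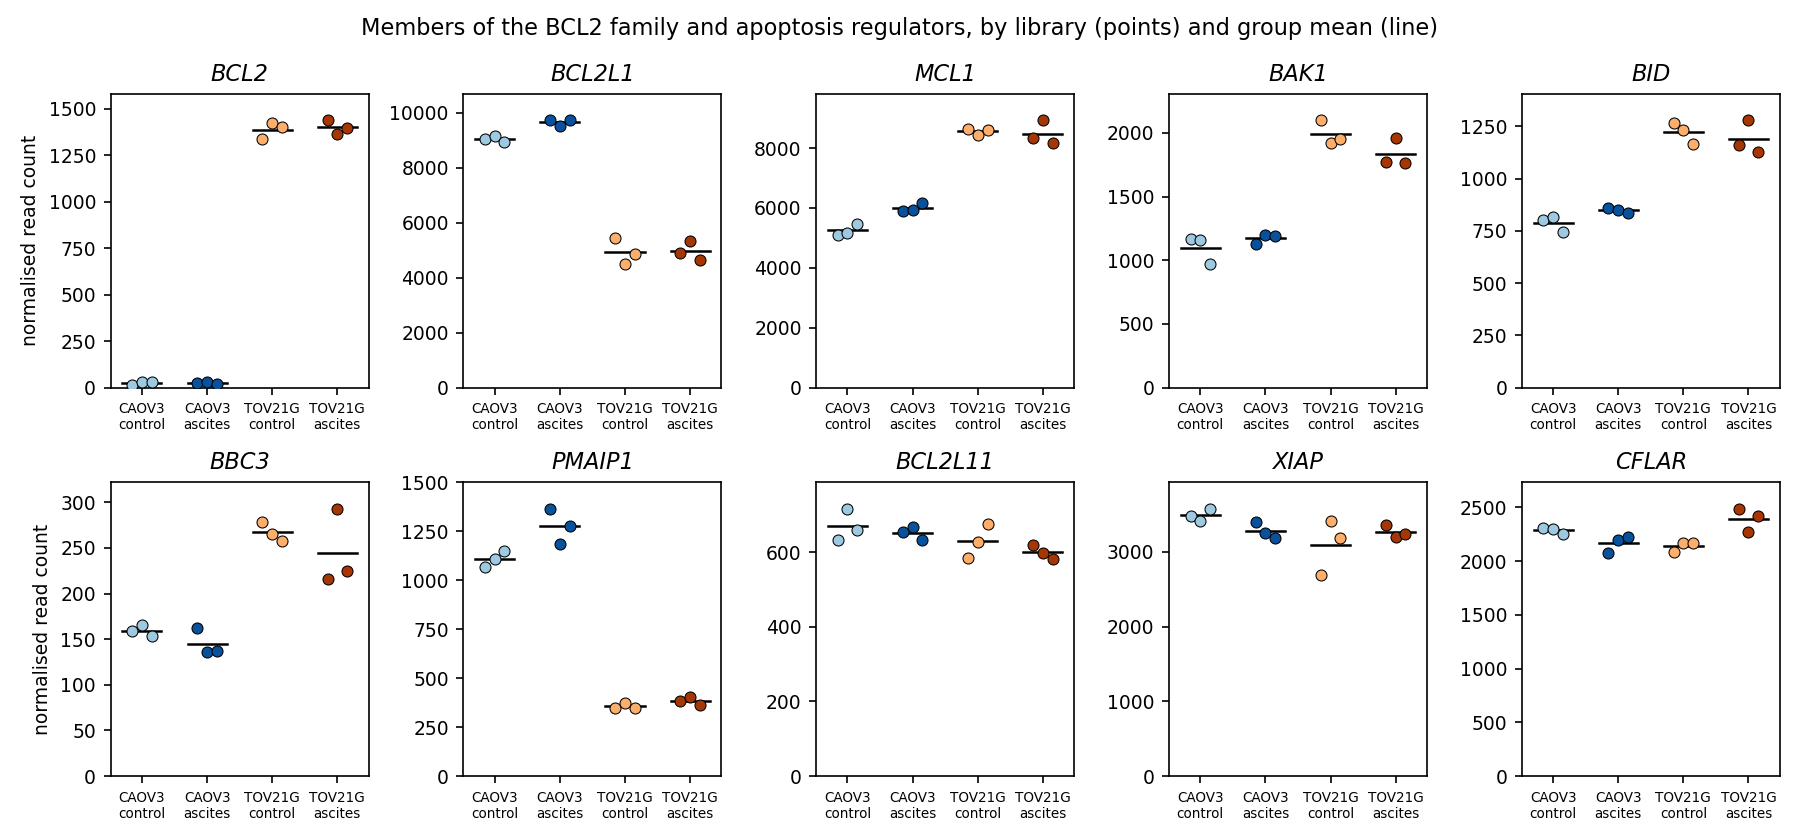
Normalised read count (linear axis from 0) of the 10 genes in each of the 12 libraries (points), with the mean of 3 libraries per group (line). BCL2 lay at 14.8 to 30.1 in the 6 CAOV3 libraries and at 1334 to 1437 in the 6 TOV21G libraries, while most control and ascites groups of the same line lie close together.

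BCL2 (ENSG00000171791, chromosome 18, 63123346 to 63320128, minus strand) encodes the founding survival protein of the family. Its normalised counts were 14.8, 30.1 and 27.7 in CAOV3 controls and 1334, 1421 and 1399 in TOV21G controls. Every TOV21G library lay far above every CAOV3 library. The ratio of means was 57.2 and the log2 difference 5.84 (SE 0.21, limma adjusted p = 9.65e-12). In CAOV3 the level rests on 13, 28 and 28 reads per control library, so BCL2 was detected but low there. Per kb of exon, it stood at the 7.9 percentile of tested genes in CAOV3 controls and at the 53.3 percentile in TOV21G controls.

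BCL2L1 (ENSG00000171552, chromosome 20, 31664452 to 31723989, minus strand) encodes BCL-XL and, by splicing, the shorter death-promoting BCL-XS, which gene counts cannot separate. It had 9047, 9161 and 8928 normalised counts in CAOV3 controls and 5451, 4489 and 4872 in TOV21G controls. Here CAOV3 was the higher line, with no overlap. In bulk RNA, fewer expressing cells and less RNA per cell cannot be told apart. The level in CAOV3 was 1.83 times that in TOV21G, a log2 difference of -0.88 (TOV21G minus CAOV3, SE 0.06, limma adjusted p = 1.47e-08). An antisense gene, ABALON, overlaps its exons and held at most 0.451% of its count in any library. How reads in shared exons were counted is not given in the sources used here, so the effect of the overlap was not tested.

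MCL1 (ENSG00000143384, chromosome 1, 150574551 to 150579738, minus strand) encodes a survival protein that is rapidly degraded. Its normalised counts were 5108, 5175 and 5480 in CAOV3 controls and 8638, 8441 and 8610 in TOV21G controls. All TOV21G controls were higher. The ratio of means was 1.63 and the log2 difference 0.71 (SE 0.04, limma adjusted p = 2.02e-09). A transcript that overlaps its exons, ADAMTSL4-AS1, held at most 0.724% of its count, and the effect of this overlap was not tested either.

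The survival genes therefore came in a different order per length in each line. Normalised counts per kb of exon were 2730 ± 35.2 for BCL2L1 and 1202 ± 45.3 for MCL1 in CAOV3 controls (SD, n = 3). In TOV21G controls they were 1490 ± 146 for BCL2L1 and 1959 ± 24.4 for MCL1 (SD, n = 3). BCL2L1 led in all 3 CAOV3 controls and MCL1 in all 3 TOV21G controls. Of the summed per-kb level of BCL2L1, MCL1, BCL2L2, BCL2 and BCL2L10, BCL2L1 made up 63.2% ± 0.774 in CAOV3 controls and 39.1% ± 2.22 in TOV21G controls (SD, n = 3). MCL1 made up 27.8% ± 1.01 and 51.5% ± 1.55. BCL2 was 0.0476% ± 0.016 and 3.1% ± 0.225 of the sum. The ratio of BCL2L1 to MCL1 per kb was 2.34, 2.33 and 2.15 in CAOV3 controls and 0.832, 0.701 and 0.746 in TOV21G controls. After ascites it was 2.18, 2.12 and 2.09 in CAOV3 and 0.776, 0.79 and 0.754 in TOV21G, so the order within each line was kept. With the length of the longest protein-coding transcript, an alternative chosen after seeing the data, the mean control ratios were 2.6 and 0.868, in the same order.

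**Figure D2:**
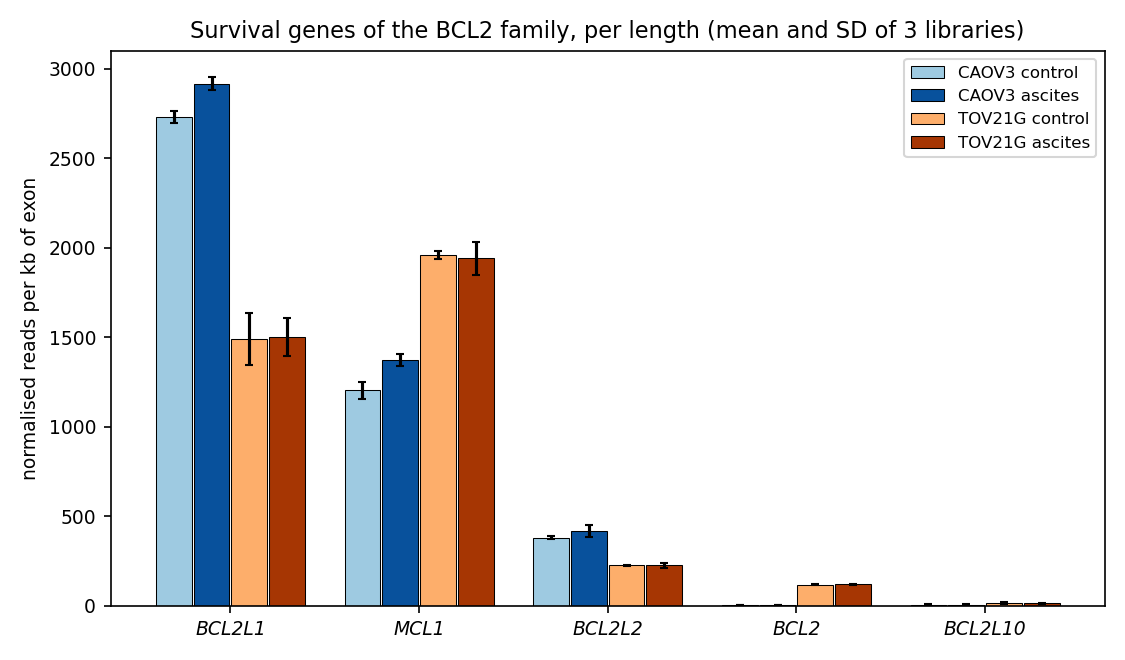
Normalised reads per kb of exon for 5 survival genes of the BCL2 family; bars are means and error bars SDs of 3 libraries per group, on an axis from 0. BCL2L1 is the tallest gene in both CAOV3 groups and MCL1 in both TOV21G groups, and BCL2 is visible only in TOV21G.

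BAK1 (ENSG00000030110, chromosome 6, 33572547 to 33580293, minus strand) encodes the pore former BAK. Its normalised counts were 1167, 1157 and 974 in CAOV3 controls and 2100, 1924 and 1951 in TOV21G controls. The TOV21G controls were all higher, with a ratio of means of 1.81 and a log2 difference of 0.86 (SE 0.07, limma adjusted p = 4.16e-08). The other pore formers were measured for comparison. BAX had 2151, 2155 and 1937 normalised counts in CAOV3 controls and 2972, 2670 and 2676 in TOV21G controls, also higher in TOV21G (log2 difference 0.41, limma adjusted p = 3.37e-05). BOK had 1507, 1481 and 1383 against 1485, 1318 and 1295 and was not called (-0.09, adjusted p = 0.199).

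BID (ENSG00000015475, chromosome 22, 17734138 to 17774770, minus strand) encodes the BH3-only protein that caspase-8 cleaves, linking death receptors to mitochondria. It had 801, 815 and 745 normalised counts in CAOV3 controls and 1265, 1235 and 1168 in TOV21G controls. The groups did not overlap, and the log2 difference was 0.63 (SE 0.06, limma adjusted p = 1.18e-07). BBC3 (ENSG00000105327, chromosome 19, 47220822 to 47232766, minus strand) encodes PUMA, a BH3-only protein that binds the survival members. It had 159, 166 and 153 normalised counts in CAOV3 controls and 279, 265 and 258 in TOV21G controls. TOV21G was again higher without overlap, by a log2 difference of 0.74 (SE 0.12, limma adjusted p = 4.45e-05).

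PMAIP1 (ENSG00000141682, chromosome 18, 59899948 to 59904306, plus strand) encodes NOXA, a BH3-only protein that binds MCL1. Its direction was the opposite of that of BBC3. Its normalised counts were 1069, 1108 and 1148 in CAOV3 controls and 349, 373 and 346 in TOV21G controls. The CAOV3 level was 3.11 times that in TOV21G, a log2 difference of -1.64 (SE 0.06, limma adjusted p = 1.55e-11). Per kb of exon, PMAIP1 stood at the 83.2 percentile of tested genes in CAOV3 controls and at the 59.4 percentile in TOV21G controls.

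BCL2L11 (ENSG00000153094, chromosome 2, 111119378 to 111168447, plus strand) encodes BIM, a BH3-only protein that binds every major survival member. It had 634, 717 and 661 normalised counts in CAOV3 controls and 585, 628 and 675 in TOV21G controls. These groups overlapped, and the gene was not called (log2 difference -0.09, 95% interval -0.23 to 0.04, limma adjusted p = 0.187). Its count is uncertain, because MIR4435-2HG overlaps its exons on the opposite strand with 619 to 1035 normalised counts, up to 155% of the BCL2L11 count in a library.

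XIAP (ENSG00000101966, chromosome X, 123859724 to 123913979, plus strand) encodes a direct caspase inhibitor. It had 3484, 3414 and 3576 normalised counts in CAOV3 controls and 2689, 3407 and 3185 in TOV21G controls. TOV21G control replicate 1 was the lowest and TOV21G control replicate 2 lay just below the lowest CAOV3 control. The gene was called lower in TOV21G by a small log2 difference of -0.18 (SE 0.07, limma adjusted p = 0.0238). The call was lost without TOV21G control replicate 1 (-0.08, adjusted p = 0.101), without CAOV3 control replicate 3 (adjusted p = 0.0722), without CAOV3 control replicate 1 (adjusted p = 0.0514) and when the control libraries were fitted alone (adjusted p = 0.0684). TOV21G control replicate 1 was also the lowest library in the nuclear RNA KCNQ1OT1, with 95.4 normalised counts beside 656 and 234 in the other TOV21G controls and 697 to 813 in CAOV3 controls; the part of this in the XIAP result was not tested.

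CFLAR (ENSG00000003402, chromosome 2, 201116104 to 201176687, plus strand) had 2305, 2297 and 2253 normalised counts in CAOV3 controls and 2089, 2170 and 2172 in TOV21G controls. All TOV21G controls were lower, but the gene was not called (log2 difference -0.09, 95% interval -0.18 to -0.00, limma adjusted p = 0.0585). It passed the threshold when the control libraries were fitted alone (adjusted p = 0.0499) and without TOV21G ascites replicate 2 (adjusted p = 0.0345). Antisense and pseudogene exons overlap it, so its count is uncertain.

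Ascites moved few of the 10 genes in CAOV3. MCL1 was the 1 gene called, and it rose; 1.73% of all tested genes were called in this comparison. At an unadjusted p under 0.05 there were 2 of the 10, MCL1 and PMAIP1, against 2280 of 17616 tested genes. The control and ascites libraries did not overlap at 6 of 10 genes (BCL2L1, MCL1, BID and PMAIP1 with ascites above, XIAP and CFLAR with ascites below), against 24.2% of all tested genes. The median log2 difference was 0.05 over the 10 genes and -0.00 over all tested genes.

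MCL1 in CAOV3 went from 5108, 5175 and 5480 normalised counts in controls to 5896, 5939 and 6153 after ascites. Every ascites library was above every control, with a ratio of means of 1.14. The log2 difference was 0.19 (SE 0.04, 95% interval 0.10 to 0.28, limma adjusted p = 0.0394). The call stood near the threshold: it was lost without CAOV3 control replicate 1 (adjusted p = 0.17) or 2 (0.133), without CAOV3 ascites replicate 1 (0.0958), 2 (0.115) or 3 (0.163), and without TOV21G control replicate 3 (0.0724) or TOV21G ascites replicate 1 (0.0697). Its size moved only between 0.17 and 0.22 in those 12 fits. Summed epithelial markers moved in the same direction, from 131717 to 132806 in CAOV3 controls to 153330 to 162634 after ascites, and their part in the result was not tested. That sum rose through KRT8 (mean 66468 to 81372) and KRT18 (47679 to 59866), both called. The means of the other 3 were 735 and 825 at EPCAM, 16839 and 16198 at KRT19, and 425 and 272 at CDH1, and none of these was called, though every CDH1 value after ascites was below every control. Over the 6 CAOV3 libraries, the genes whose levels followed MCL1 most closely among 11367 ranked were DRG1 (Pearson r = 0.995), TCP1 (0.994) and ATG12 (0.993), given as a description.

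PMAIP1, whose product binds MCL1, had 1069, 1108 and 1148 normalised counts in CAOV3 controls and 1364, 1186 and 1278 after ascites. The groups did not overlap, yet it was not called (log2 difference 0.20, 95% interval 0.07 to 0.34, limma adjusted p = 0.162); with the CAOV3 libraries fitted alone it was (adjusted p = 0.0164). BCL2L1 had 9047, 9161 and 8928 normalised counts in controls and 9733, 9527 and 9735 after ascites. These groups also stood apart, with a log2 difference of 0.10 that was not called (95% interval -0.04 to 0.23, limma adjusted p = 0.586). BID (801, 815 and 745 against 859, 850 and 838) had a log2 difference of 0.11 (limma adjusted p = 0.44).

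XIAP in CAOV3 had 3405, 3248 and 3189 normalised counts after ascites, just below its controls (log2 difference -0.09, limma adjusted p = 0.637). CFLAR had 2076, 2195 and 2227, also below (-0.08, limma adjusted p = 0.48). The other 4 genes overlapped between control and ascites. BAK1 had 1131, 1200 and 1187 after ascites (log2 difference 0.10, limma adjusted p = 0.609), BBC3 had 162, 136 and 137 (-0.14, adjusted p = 0.677), and BCL2L11 had 654, 667 and 634 (-0.04, adjusted p = 0.867). BCL2 stayed at few reads, with 21.9, 29.7 and 19.4 normalised counts, and its 95% interval of -0.45 to 0.47 is wide.

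In TOV21G no member was called by limma, where 0.409% of all tested genes were called. At an unadjusted p under 0.05 there was 1 of the 10, CFLAR, against 1615 of 17616 tested genes. For the 10 genes, edgeR and DESeq2 on the recovered reads called 0 each. The groups did not overlap at 1 of 10 genes, CFLAR, against 11.1% of all tested genes. The median log2 difference was -0.00 over the 10 genes and -0.02 over all tested genes.

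CFLAR in TOV21G had 2089, 2170 and 2172 normalised counts in controls and 2487, 2272 and 2423 after ascites. All 3 ascites libraries were higher, with a ratio of means of 1.12. The log2 difference was 0.16 (95% interval 0.07 to 0.25), which was not called (limma adjusted p = 0.194). MCL1 had 8351, 8931 and 8157 normalised counts after ascites, on both sides of its controls (log2 difference -0.02, 95% interval -0.11 to 0.08, limma adjusted p = 0.949). BCL2L1 had 4915, 5347 and 4661 (0.01, 95% interval -0.12 to 0.15, adjusted p = 0.981).

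BCL2, well covered in this line, had 1437, 1361 and 1397 normalised counts after ascites, overlapping its controls (log2 difference 0.01, limma adjusted p = 1). Its 95% interval of -0.44 to 0.47 is as wide as in CAOV3, since the fit shares 1 spread over both lines. BAK1 had 1775, 1958 and 1766 after ascites (-0.12, limma adjusted p = 0.616) and PMAIP1 had 384, 401 and 362 (0.10, adjusted p = 0.635). BID had 1160, 1280 and 1126, BBC3 had 216, 293 and 225, and BCL2L11 had 621, 598 and 581, and each overlapped its controls. XIAP had 3359, 3195 and 3238 after ascites, between its controls at 2689 and 3407 (0.08, adjusted p = 0.713).

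**Figure D3:**
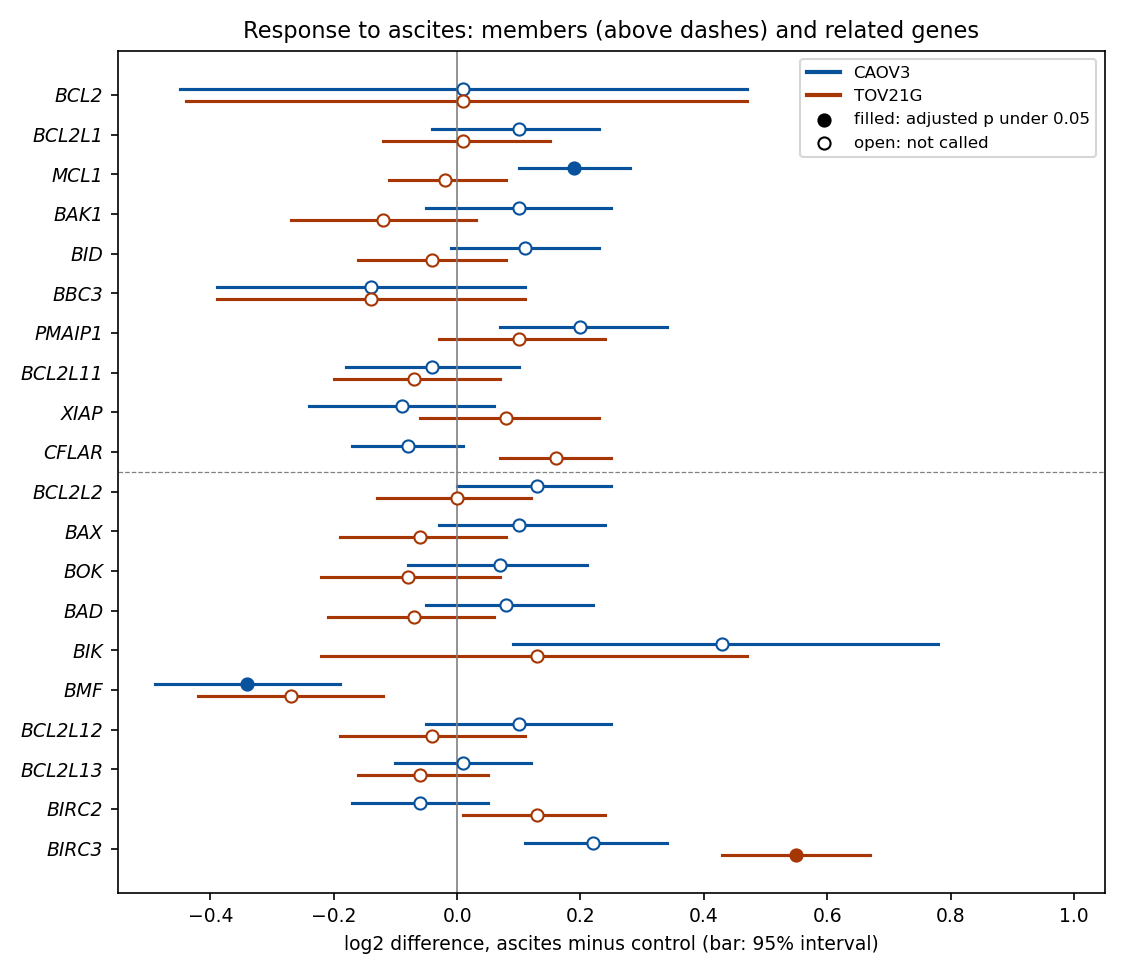
Log2 difference of ascites minus control (points) with 95% intervals (bars) in CAOV3 (blue) and TOV21G (brown), for the 10 genes above the dashed line and 10 related genes below it; filled points have an adjusted p under 0.05. MCL1 in CAOV3 (0.19) is the filled point among the 10 genes, with BMF in CAOV3 (-0.34) and BIRC3 in TOV21G (0.55) filled below.

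The responses of the lines were compared directly, as TOV21G minus CAOV3. None of the 10 genes was called by limma, against 0.545% of all tested genes, and edgeR and DESeq2 called 0 as well. At an unadjusted p under 0.05 there were 3 of the 10 (CFLAR, MCL1 and BAK1), against 2091 of 17616 tested genes. The difference in response was 0.24 for CFLAR (95% interval 0.11 to 0.36, limma adjusted p = 0.138), -0.21 for MCL1 (95% interval -0.34 to -0.08, adjusted p = 0.218) and -0.22 for BAK1 (95% interval -0.43 to -0.01, adjusted p = 0.41). The MCL1 rise in CAOV3 was thus not shown to differ from the TOV21G value. Without TOV21G ascites replicate 2 the CFLAR difference was 0.27 and passed the threshold (limma adjusted p = 0.0459). It passed in 1 of 12 fits with 1 library left out and in 0 of 8 alternatives. In the fit where it passed, 146 of all tested genes were called, against 96 in the main fit.

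Over all 4 groups, the 6 libraries of one line lay apart from the 6 of the other at 7 of the 10 genes: BCL2, BCL2L1, MCL1, BAK1, BID, BBC3 and PMAIP1. The same held for 74.7% of all tested genes, so this count is near the background and is nothing particular to these genes. At BCL2L11 no neighbouring groups stood apart. At XIAP the CAOV3 controls stood above the next group, CAOV3 with ascites, and the rest overlapped. At CFLAR the TOV21G ascites group had the highest mean and overlapped the CAOV3 controls, and these stood above CAOV3 with ascites in the order of means.

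Other members of the BCL2 family were measured as context. BMF, a BH3-only protein released from the cytoskeleton, had 1294, 1270 and 1376 normalised counts in CAOV3 controls and 1081, 987 and 1055 after ascites. It fell by 0.34 on the log2 scale (SE 0.07, limma adjusted p = 0.0275), with no overlap. In TOV21G it had 557, 507 and 560 against 456, 484 and 404, a log2 difference of -0.27 that was not called (limma adjusted p = 0.16), and the responses did not differ by the test of the difference (0.06, adjusted p = 0.81). The CAOV3 call was lost when any 1 CAOV3 library was left out, with adjusted p = 0.0563 to 0.122. Of the 8 BH3-only genes, BMF was the 1 called in CAOV3, where 1.73% of all tested genes were called. None of the 8 was called in TOV21G, where 0.409% of all tested genes were. At an unadjusted p under 0.05 there were 3 of the 8 in CAOV3 and 1 in TOV21G, against 2280 and 1615 of 17616 tested genes.

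Between the controls, BCL2L2 (BCL-w) was lower in TOV21G, with 931, 962 and 939 normalised counts against 1592, 1617 and 1561 in CAOV3 (log2 difference -0.75). Its exons overlap the readthrough gene BCL2L2-PABPN1, so its count is uncertain. BMF (-1.28) and BCL2L12 (1376, 1239 and 1228 against 1621, 1795 and 1495, -0.35) were lower too. BAD, a BH3-only protein controlled by phosphorylation, was slightly higher (873, 833 and 948 against 791, 797 and 743, 0.19), and BCL2L10 was higher at low counts (15.2, 25.2 and 15.3 against 10.2, 9.68 and 0.99, 1.62). HRK, a BH3-only gene, had 1 read in all 3 CAOV3 controls together and 249 in TOV21G controls, a ratio of 235 with a 95% counting interval of 41.8 to 9314. BIK (47.5 to 51.1 in CAOV3 controls, 46.1 to 53.8 in TOV21G controls), BCL2L13 (2452 to 2490 and 2261 to 2566) and BCL2L15 (4.95 to 7.53 and 7.59 to 12.6) were not called. With ascites, limma called none of these genes other than BMF in either line. BCL2A1 and BCL2L14 were not analysed here.

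Other inhibitors of apoptosis and their antagonists were measured beside XIAP. Of 9 genes tested in that list, 5 were called higher and 2 lower in TOV21G controls, a share near the 82.2% called among all tested genes. BIRC3 (cIAP2), a ubiquitin ligase and NF-kB target, had means of 328 in CAOV3 and 3130 in TOV21G controls (ratio 9.53), and BIRC2 (cIAP1) 1463 and 5642 (ratio 3.86). BIRC7 (livin) was low in CAOV3 (mean 5.23, against 122 in TOV21G), and BIRC6 was lower in TOV21G (log2 difference -0.58). At BIRC6, TOV21G control replicate 1 was far the lowest, with 3890 beside 7174 and 6209, and the CAOV3 controls had 8164 to 8447. BIRC3 was also the 1 gene of the list called with ascites in TOV21G, where 0.409% of all tested genes were called. It went from 3159, 3109 and 3122 to 4486, 4832 and 4456 normalised counts (log2 difference 0.55, limma adjusted p = 0.000493). In CAOV3 it had 305, 335 and 345 against 395, 393 and 362 (0.22, adjusted p = 0.0647), and the responses were not called different (0.33, adjusted p = 0.106).

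Downstream, all 13 caspase and apoptosome genes were called between the controls, 8 higher and 5 lower in TOV21G. With 82.2% of all tested genes called, nothing particular to the list is read from this count. CASP10, an initiator caspase, had means of 19.4 and 371 in CAOV3 and TOV21G controls. CYCS, which encodes cytochrome c, was lower in TOV21G, at 5203 against 21317, as was CASP2 (1540 against 2929). With ascites limma called none of the 13 in either line, and edgeR and DESeq2 also called 0. At an unadjusted p under 0.05 limma gave 3 in CAOV3 and 2 in TOV21G, against 2280 and 1615 of 17616 tested genes.

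In the death receptor pathway, where CFLAR acts, 6 of 13 tested genes were called higher and 5 lower in TOV21G controls, again near the background of 82.2% called. FAS, the receptor for FAS ligand, had 3.4, 3.23 and 3.96 normalised counts in CAOV3 controls and 4231, 3966 and 4090 in TOV21G controls. TNF had 0 reads in CAOV3 controls and a mean of 277 in TOV21G, at least 260-fold higher against a floor of 3 reads over the group. TNFSF10 (TRAIL) was the reverse, with 0 reads in TOV21G controls and 24.5 in CAOV3, at least 24.4-fold higher in CAOV3. TNFRSF21 was also lower in TOV21G (791 against 5265), as was FADD, the adaptor that CFLAR competes at (1224 against 1997). With ascites none of the 13 was called in either line. In TOV21G the groups did not overlap at 3 of the 13 (2 with ascites above, 1 below), against 11.1% of all tested genes. TNF was among those above, with 482, 511 and 480 after ascites and 293, 269 and 270 in controls. With 1 library left out, 0 to 1 of the 13 were called in TOV21G. Of 8 genes for binding and turnover of BCL2 family proteins, 4 were called higher and 1 lower in TOV21G controls. This share of the list called is below that over all tested genes. The 4 were led by the ubiquitin ligase subunit BTRC (0.95) and the deubiquitinase USP9X (0.61), and the lower gene was DYNLL1 (-0.17). At USP9X, TOV21G control replicate 1 was the lowest of its group (6628, beside 8987 and 8491).

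**Figure D4:**
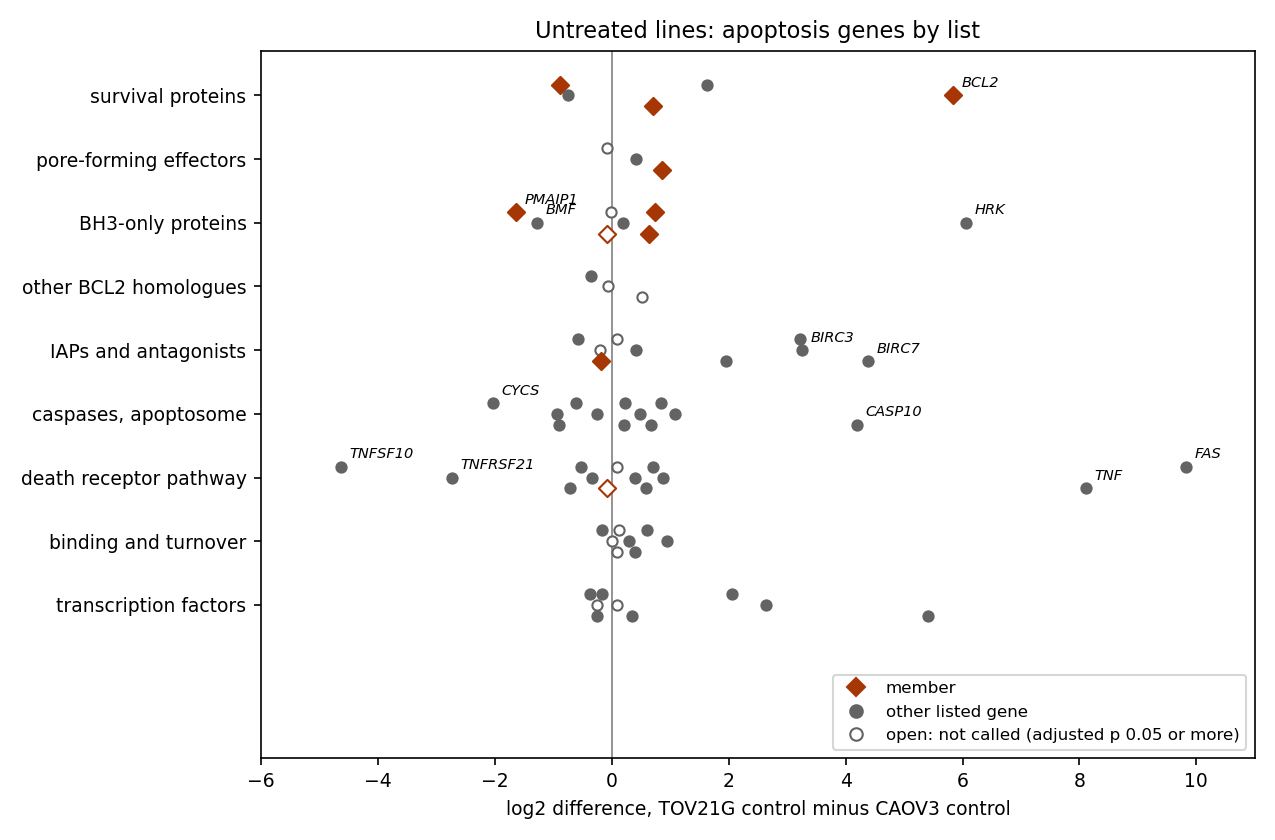
Log2 difference of TOV21G control minus CAOV3 control for the 10 genes (diamonds) and other tested apoptosis genes (circles), 1 row per list, with some listed genes not shown; open symbols were not called. BCL2 (5.84) and PMAIP1 (-1.64) are the outer diamonds, and FAS (9.82) and TNF (8.12) are the outer circles on the right.

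Among transcription factors listed as regulators of these genes, TP73 had means of 2.75 in CAOV3 and 126 in TOV21G controls. ATF4 (-0.37) and E2F1 (-0.25) were lower in TOV21G.

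With ascites, TP53INP1 fell in CAOV3 from 121, 133 and 180 to 77.7, 82.8 and 76.7 normalised counts (log2 difference -0.85, limma adjusted p = 0.00206). STAT3, a factor that drives MCL1 and BCL2L1 in many cells, rose in CAOV3 from 1809, 1757 and 1852 to 2377, 2389 and 2525 (0.43, limma adjusted p = 0.000175). In TOV21G it had 7912, 7221 and 7464 against 7848, 8165 and 7726 (0.07, adjusted p = 0.632), and the responses were called different (TOV21G minus CAOV3 -0.36, adjusted p = 0.021). Over the 81 tested apoptosis genes outside the 10, 3 were called in CAOV3 (3.7%, 1 higher and 2 lower), against 1.73% of all tested genes. In TOV21G 1 was called (1.23%, higher), against 0.409% of all tested genes. The median log2 differences were 0.03 and -0.04, against -0.00 and -0.02 over all tested genes.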

How the data were processed

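The authors deposited, for each of 12 libraries, a normalised read count per gene (a signal that is never negative). Per the submitters' processing notes, the tools were Trim Galore, cutadapt, STAR, HTSeq and DESeq; their roles, the build, the annotation and the strandedness are not given in the sources used here. In every library 100% of values were whole multiples of 1 step within 0.01 read, so whole reads could be recovered, and the steps matched the DESeq median-of-ratios factors over all 12 libraries.

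The deposited values were tested with limma 3.58.1 (R 4.3.3) on log2(value + 1), with a trend in the variance prior, in 1 fit of all 12 libraries with a mean per group and no replicate block. Genes entered the test with a value of 10 or more in 3 or more libraries. P-values are two-sided, adjusted by Benjamini-Hochberg within each contrast. The log2(value + 1) scale understates changes of low genes. edgeR 4.0.16 and DESeq2 1.42.0 were run on the recovered reads as alternatives, besides other pseudocounts, filters, TMM scaling, lines fitted alone, a replicate block and each library left out. Libraries of a group differed beyond sampling noise. The chi-square per degree of freedom was 1.81 to 8.38 in CAOV3 and 3.89 to 22.6 in TOV21G. The limma script was tested on simulated data. Symbols of 19087 identifiers came from the gene name table, those of 136 from GENCODE 29, and 28 had none; positions and exon lengths are those of GENCODE 29.

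Named genes were the 10 members, the other BCL2 family genes, listed genes called with ascites, and for the untreated lines up to 2 per list and direction with a mean of at least 50. Some listed genes and 1 list are not reported here. BIRC2 and TNFSF10 were added as context after their values were seen. The members and lists were chosen with earlier results of these data known. Read counts carry no molecular identifiers here, so intervals and floors cover counting error only.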

Additional observations from a re-analysis of the deposited data

Results flagged for a closer look

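The response of STAT3 to ascites differed between the lines by a test of the difference itself: TOV21G minus CAOV3 was -0.36 on the log2 scale (limma adjusted p = 0.021). It passed the threshold in 7 of 8 alternatives and in 5 of 12 fits with 1 library left out. The response of KRT8, an epithelial keratin, was also called different, by -0.41 (limma adjusted p = 0.0483). This call stood near the threshold, and its result under the alternatives is not reported here. The mean of KRT8 went from 66468 to 81372 normalised counts in CAOV3 and from 5287 to 4859 in TOV21G. None of the 10 survival and death genes met this criterion, and groups of 3 libraries were too small for a test of single outlying libraries.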

How the results depend on the processing

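All calls between the untreated lines at BCL2, BCL2L1, MCL1, BAK1, BID, BBC3 and PMAIP1 were kept under the 9 alternatives and the 12 fits that left out 1 library. With ascites in CAOV3, 2 members were called with lines fitted alone, 0 with a replicate block and 0 to 1 with 1 library left out; the difference in response gave 0 to 1 with 1 library left out. MCL1 in CAOV3 kept its call in 8 of 9 alternatives (adjusted p 0.000998 to 0.185).

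Over all genes, CAOV3 calls were 305 with limma, 511 with edgeR, 507 with DESeq2, 1295 with lines fitted alone and 172 to 344 with 1 library left out. TOV21G calls were 72, 114, 151, 22 and 24 to 136 in the same order. Calls for the difference were 96 with limma, 151 with TMM scaling, 148 with edgeR, 210 with DESeq2 and 40 to 146 with 1 library left out. The cause was not tested.

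Whether the replicate numbers pair the libraries is not settled here. After the group mean of each gene was removed, same-numbered control and ascites libraries correlated at -0.0196, 0.019 and 0.0155 in CAOV3. In TOV21G they correlated at -0.113, -0.332 and 0.0193. Libraries with unlike numbers correlated at -0.0544 to 0.0389 in CAOV3 and at -0.282 to 0.352 in TOV21G. Deviations from means of 3 libraries cannot show whether cultures were paired. With the replicate block, CAOV3 had 116 calls, TOV21G 13 and the difference 9; MCL1 in CAOV3 had adjusted p = 0.185, BMF in CAOV3 0.146 (log2 difference -0.34) and the STAT3 difference in response 0.182 (-0.36), so these calls were not made.

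Values that changed sign were uncalled and near 0 in the main fit, though some, such as BCL2, moved well away from 0 with 1 library left out. In CAOV3 these were BCL2 (-0.05 with edgeR, -0.05 with DESeq2, -0.3 to 0.19 with 1 library left out) and BCL2L11 (-0.08 to 0.01). In TOV21G these were MCL1 (0.01 with TMM scaling, 0.01 with edgeR, -0.05 to 0.01 with 1 library left out), BCL2 (-0.01 to 0.03), BCL2L1 (-0.05 to 0.09) and XIAP (-0.01 to 0.16). For the difference these were BBC3 (0.03 with TMM scaling, 0.03 with edgeR, 0.01 with DESeq2, -0.14 to 0.08 with 1 library left out), BCL2L11 (0.00092 with TMM scaling, -0.08 to 0.02) and BCL2 (-0.18 to 0.31). DESeq2 gave no adjusted p for some genes, and these were left as missing. Low read counts limit BCL2 in CAOV3.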
